A study of Saccharomyces cerevisiae with 6 samples.

Results

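The genes of the histone acetyltransferase and deacetylase complexes of budding yeast, Saccharomyces cerevisiae, were compared between an H2B K111A mutant, in which an alanine replaces a lysine of histone H2B, and its wild type. They were taken from a fixed list of subunits of the SAGA, ADA, NuA4, NuA3, SAS, Rpd3, Hda1 and Set3 complexes and of the enzymes that act beside them, matched by gene symbol to the array annotation. Each of the 54 genes on the list was read by 1 probe set, out of 5449 genes read in all. Of these, 28 belong to the acetyltransferases and 26 to the deacetylases, and 14 encode the subunit that carries out the reaction.

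The mutant strain is WY317, with H2B K111A, on 3 arrays, and its wild type is PY014, with wild-type H2B, on 3 arrays. Both grew in YPD, which is rich in glucose, and were harvested in mid-log phase, and total RNA was labelled with biotin as cRNA. The labels also name these wild-type samples as the control of a second H2B mutant, which is not analysed here. Whether the samples of a strain are separate cultures is not stated, and the p-values therefore describe sample-to-sample spread that could be technical in part.

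Lysine acetylation on histone tails loosens chromatin and is read by proteins that help transcription. Acetyltransferases place the mark and deacetylases remove it, and in yeast nearly all of these enzymes work inside multi-subunit complexes whose other subunits bring them to activators, to DNA-binding repressors or to methylated histones. SAGA and NuA4 act at many active promoters, the large Rpd3 complex represses genes through DNA-binding proteins, and the small Rpd3 complex removes acetylation from transcribed gene bodies.

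The 6 arrays had mean intensities of 146.4 to 148.2, and the log2 values of any pair of arrays from 1 strain correlated across genes at 0.997 to 0.998. Probe sets of another organism on the same array gave the background, an intensity of 3.7 at their 99th percentile. All 54 subunit genes lay above it on all 6 arrays. The K111A substitution is a point change that H2B mRNA levels cannot check.

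Few of these genes differed between the strains by the test, and those that did fell by small amounts. EAF1, the platform subunit of NuA4, fell to 60.0 ± 3.03 in H2B K111A, against 71.6 ± 4.08 in wild type (intensity, SD, n = 3 each). RCO1, a subunit of the small Rpd3 complex alone, fell to 48.8 ± 8.66 in H2B K111A, against 65.1 ± 3.86 in wild type. None of the 54 rose, and 52 did not pass. Differences were fitted over all 5449 genes with limma on log2(intensity + 32), a scale that understates the change of dim genes, and a gene was called at a Benjamini-Hochberg adjusted p under 0.05. The 2 called genes are 3.70% of the subunit genes, whereas 14.5% of all genes were called, 6.92% as higher and 7.62% as lower in the mutant. At an unadjusted p under 0.05 there were 9 subunit genes, or 16.7%, against 31.7% of all genes. These shares were not tested against each other. The count of 2 was 0 without mutant array 1 or mutant array 3. At an unadjusted p under 0.05 there were then 7 subunit genes in either case, beside 1447 and 1300 of all 5449 genes. Without any other array the count was 1. Without wild-type array 2 that gene was RXT2, so neither EAF1 nor RCO1 kept its call. The share of all genes called was 5.56% and 3.91% without mutant arrays 1 and 3, and 8.35% to 10.3% without the others.

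The changes were small in size as well. The median absolute log2 change was 0.05 over the subunit genes and 0.06 over all genes tested, and 9 of 54 subunit genes (16.7%) reached 0.1, against 31.0% of all genes. The scale shrinks dim genes more, and the median wild-type intensity was 115 for the subunit genes and 159 for all genes. How much this adds to the gap in size was not tested. The median standard error of a log2 change was 0.041 in both sets. The median standard deviation within a strain was 0.051 for the subunit genes and 0.050 for all genes. Both values are on the log2(intensity + 32) scale, which compresses the spread of dim genes too. Precision on an uncompressed scale was not compared. For 49 of the 54 genes the 95% interval of the change, which is not adjusted for the number of genes, lay within 1.2-fold in either direction, as did 85.6% of the intervals of all genes. The exceptions were EAF1, RXT2, SAP30, RCO1 and HDA3. With a pseudocount of 1 in place of 32, which compresses dim genes less, 36 of 54 intervals lay within 1.2-fold. The same held for 61.1% of the intervals of all genes.

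**Figure D1:**
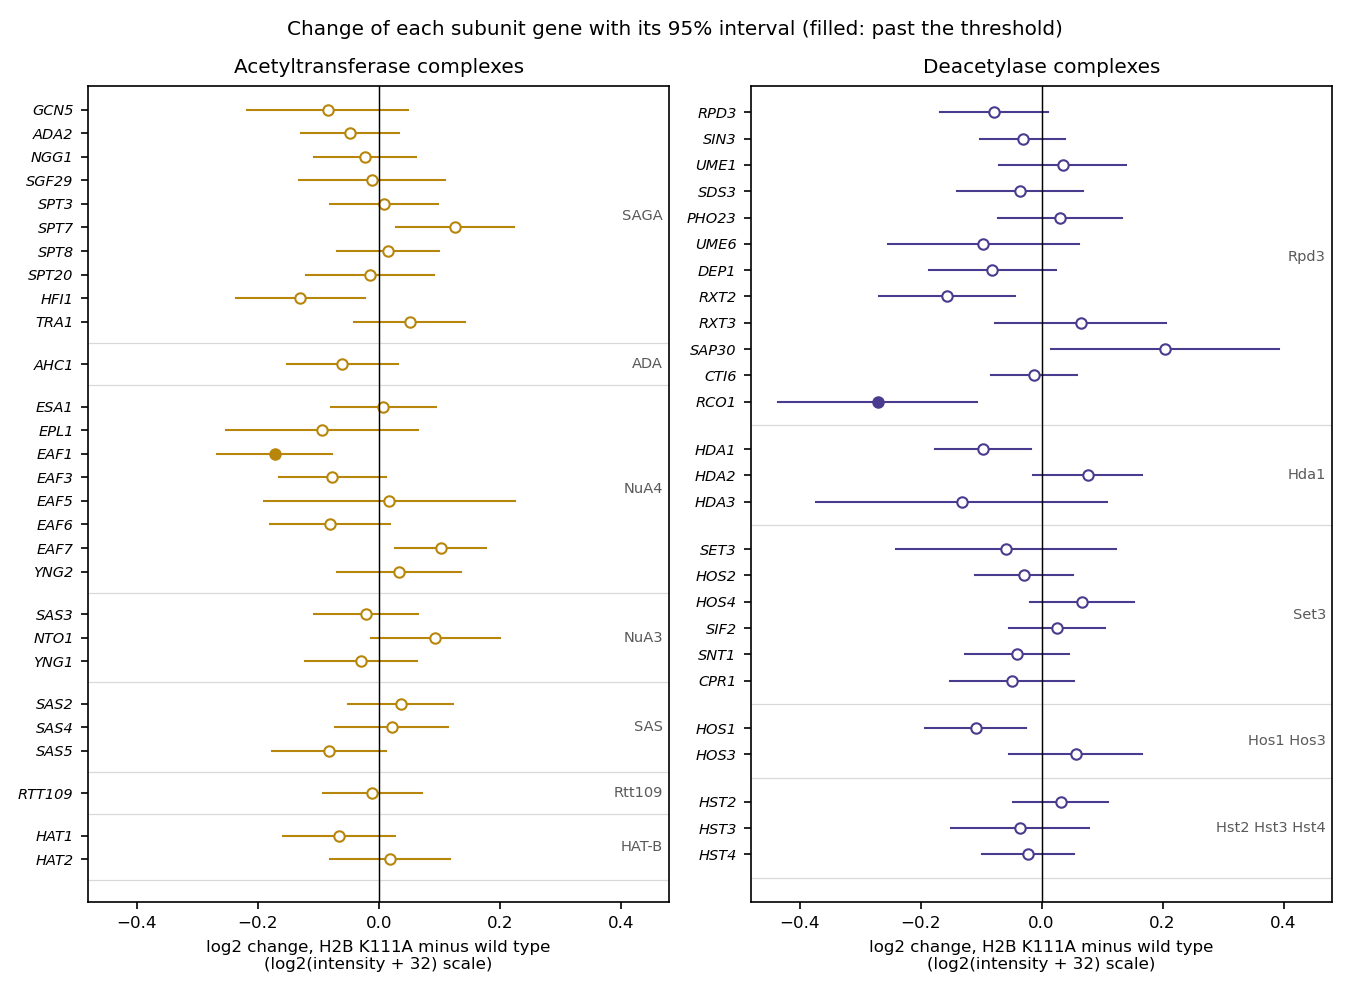
Log2 change of each of the 54 subunit genes in H2B K111A minus wild type, with its 95% interval, for acetyltransferase complexes on the left and deacetylase complexes on the right; filled points passed the adjusted threshold. EAF1 and RCO1 are the filled points. On this log2(intensity + 32) scale 49 of the 54 intervals stay within 1.2-fold in either direction, as do 85.6% of those of all genes. With a pseudocount of 1 in place of 32, 36 of the 54 do.

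**Figure D2:**
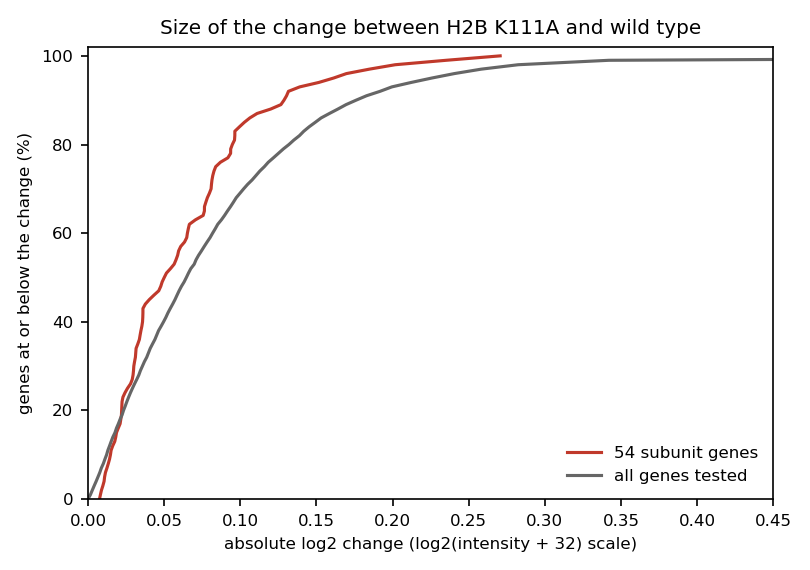
Share of genes (%) at or below each absolute log2 change between H2B K111A and wild type, for the 54 subunit genes and for all genes tested; the axis ends short of the largest changes of all genes. The curve of the subunit genes is complete at 0.27, the change of RCO1, and its median of 0.05 lies beside one of 0.06 for all genes.

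SAGA is the coactivator that carries the acetyltransferase Gcn5. None of its 10 genes passed, where 14.5% of all genes did. In limma 2 had an unadjusted p under 0.05, SPT7 and HFI1, against 31.7% of all genes. GCN5, which acetylates histone H3, read 95, 91.4 and 100.7 on the H2B K111A arrays and 108.1, 91.2 and 111.6 on the wild-type arrays. Its strains overlapped, since wild-type array 2 lay below all 3 mutant arrays, and the log2 change was -0.08 (95% interval -0.22 to 0.05). The other genes of the acetylation module are ADA2 and NGG1, which raise the activity of Gcn5 on nucleosomes, and SGF29, which binds methylated H3. Their log2 changes were -0.05, -0.02 and -0.01, and none of the 4 module genes passed. The sign of SGF29 differed in 3 of 16 alternative settings, and 15 of the 54 subunit genes had a sign that differed in at least 1. ADA2 had a log2 change of -0.14 with a pseudocount of 1. ADA2 was among the dimmest of the subunit genes, at 12.9 ± 0.458 in H2B K111A and 14.4 ± 1.40 in wild type.

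The structural and TBP-binding subunits of SAGA had log2 changes on both sides of 0, and none passed, where 14.5% of all genes did. SPT7, a core scaffold gene, read 144.2, 151.5 and 160.8 in H2B K111A and 138.8, 140.5 and 130.8 in wild type. All 3 mutant arrays lay above all 3 wild-type arrays, but the log2 change of 0.13 ± 0.043 (SE) did not pass (limma adjusted p = 0.0835). HFI1, another core subunit, lay the other way, with 125 ± 1.83 in H2B K111A and 139.6 ± 10.9 in wild type, without overlap and without passing (limma adjusted p = 0.0959). SPT3 and SPT8, which contact the TATA-binding protein, had log2 changes of 0.0087 and 0.02, and the core subunit gene SPT20 one of -0.01. For TRA1, the large activator-binding subunit that SAGA shares with NuA4, it was 0.05, and for AHC1, a subunit particular to the ADA complex, -0.06. The intervals of these last 5 genes each included 0.

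NuA4 acetylates H4 and H2A, and Esa1 is its essential enzyme. Of its 8 genes 1 fell, EAF1, and none rose, where 7.62% of all genes fell and 6.92% rose. EAF1 read 61.7, 56.5 and 61.8 in H2B K111A and 68.1, 76.1 and 70.7 in wild type. Every mutant array lay below every wild-type array, and the gene was 1.19-fold lower, with a log2 change of -0.17 ± 0.042 (SE, limma adjusted p = 0.0302). The call was close to the threshold. It held when wild-type array 1 was left out (adjusted p = 0.0426) and was lost without any other single array, with adjusted p of 0.0644, 0.0934 and 0.0777 without mutant arrays 1, 2 and 3, and of 0.0710 and 0.0511 without wild-type arrays 2 and 3.

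The other NuA4 genes did not pass, where 14.5% of all genes did. ESA1 read 153.4, 164 and 161.3 in H2B K111A and 163.1, 152.5 and 160.1 in wild type, with overlap and a log2 change of 0.0075 (95% interval -0.08 to 0.09). EAF7 read 68.1, 66.5 and 66.4 in H2B K111A and 62.3, 59.7 and 58.7 in wild type. Its mutant arrays all lay above the wild-type ones, with a log2 change of 0.10 ± 0.033 (SE) that did not pass (limma adjusted p = 0.0718). EAF5 and EAF3 encode the partners of Eaf7 in a peripheral module, and the chromodomain protein Eaf3 is also part of the small Rpd3 complex. The log2 change was 0.02 for EAF5 and -0.08 for EAF3, neither past the threshold. EAF5 varied more within a strain than any other acetyltransferase gene, at 130.4, 141.5 and 129.9 in H2B K111A and 108.1, 134 and 157 in wild type. Log2 changes were -0.09 for EPL1, which ties Esa1 to nucleosomes, -0.08 for EAF6, shared with NuA3, and 0.03 for YNG2, an ING-family subunit.

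In the remaining acetyltransferases none of 9 genes passed, and none had an unadjusted p under 0.05 in limma. Of all genes 14.5% and 31.7% did. SAS3, the H3 acetyltransferase of NuA3, read 76.5, 79.1 and 75 in H2B K111A and 74.5, 82.1 and 78.9 in wild type. SAS2, the H4 acetyltransferase of the SAS complex that opposes the spread of silencing, read 53.7, 57 and 55.6 in H2B K111A and 51.8, 51.3 and 56.8 in wild type. RTT109, which acetylates newly made H3, read 86, 81.8 and 84.2 in H2B K111A and 85.8, 81.1 and 87.7 in wild type. In all 3 genes the strains overlapped, with log2 changes of -0.02, 0.04 and -0.01. HAT1, the enzyme that acetylates newly made H4, read 140, 138.6 and 144.6 in H2B K111A and 158.7, 144.2 and 144.7 in wild type, and its wild-type array 1 lay above the other 5 arrays. The log2 change was -0.07 for HAT1 and 0.02 for its partner HAT2. It was 0.09 and -0.03 for NTO1 and YNG1, subunits of NuA3 that read H3, and 0.02 and -0.08 for SAS4 and SAS5, the partners of Sas2.

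Rpd3 is the class I deacetylase that works in a large complex at promoters and a small one in gene bodies. Of 12 genes of both complexes, with EAF3 counted under NuA4, 1 fell, RCO1, and none rose. Of all genes 7.62% fell and 6.92% rose. RCO1 read 38.8, 53.8 and 53.8 in H2B K111A and 68.8, 65.5 and 61.1 in wild type. The mutant arrays all lay below the wild-type ones, with mutant array 1 the lowest of the 6. The gene was 1.33-fold lower, and its log2 change of -0.27 ± 0.073 (SE, limma adjusted p = 0.0399) was the largest in size of the 54. Without mutant array 1 the change was -0.18 and did not pass (adjusted p = 0.0589). The call was also lost without mutant array 3 (0.0670) or wild-type array 1 (0.107) or 2 (0.0833), and with a pseudocount of 1 (0.0842, log2 change -0.42).

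RPD3, SIN3 and UME1 of the small complex are shared with the large one. RPD3 itself read 236, 253.5 and 255.1 in H2B K111A and 263.3, 257.2 and 270.7 in wild type. The mutant arrays lay below the wild-type ones, by a log2 change of -0.08 ± 0.04 (SE) that did not pass (limma adjusted p = 0.212). SIN3, the scaffold of both complexes, read 354.5, 354.6 and 356.2 in H2B K111A and 367.2, 360 and 363.5 in wild type, again without overlap, but by a log2 change of only -0.03. UME1 had a log2 change of 0.03. Over the 5 genes of the small complex, EAF3 and RCO1 included, the median log2 change was -0.08. Of these 5, 1 passed, where 14.5% of all genes did.

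The genes found in the large complex alone lay on both sides of 0, and none passed, where 14.5% of all genes did. SAP30, a subunit that binds Sin3, read 88.2, 89.7 and 86.4 in H2B K111A and 77.7, 57.2 and 83.9 in wild type. The mutant arrays were close together and all above the wild-type ones, of which array 2 was the lowest by far. The log2 change of 0.20 ± 0.083 (SE) was the highest of the 54 and did not pass (limma adjusted p = 0.132); it was 0.09 without wild-type array 2. RXT2 read 127.3, 121.2 and 112.9 in H2B K111A and 145.2, 128.5 and 139.9 in wild type, without overlap. Its log2 change of -0.16 ± 0.05 (SE) did not pass (limma adjusted p = 0.0669) but did so without wild-type array 2 (0.0443). UME6, the DNA-binding protein that brings the large complex to early meiotic genes, had a log2 change of -0.10, with overlap. Log2 changes were -0.08 for DEP1, -0.04 for SDS3, 0.03 for PHO23, 0.06 for RXT3 and -0.01 for CTI6, each with an interval that included 0.

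**Figure D3:**
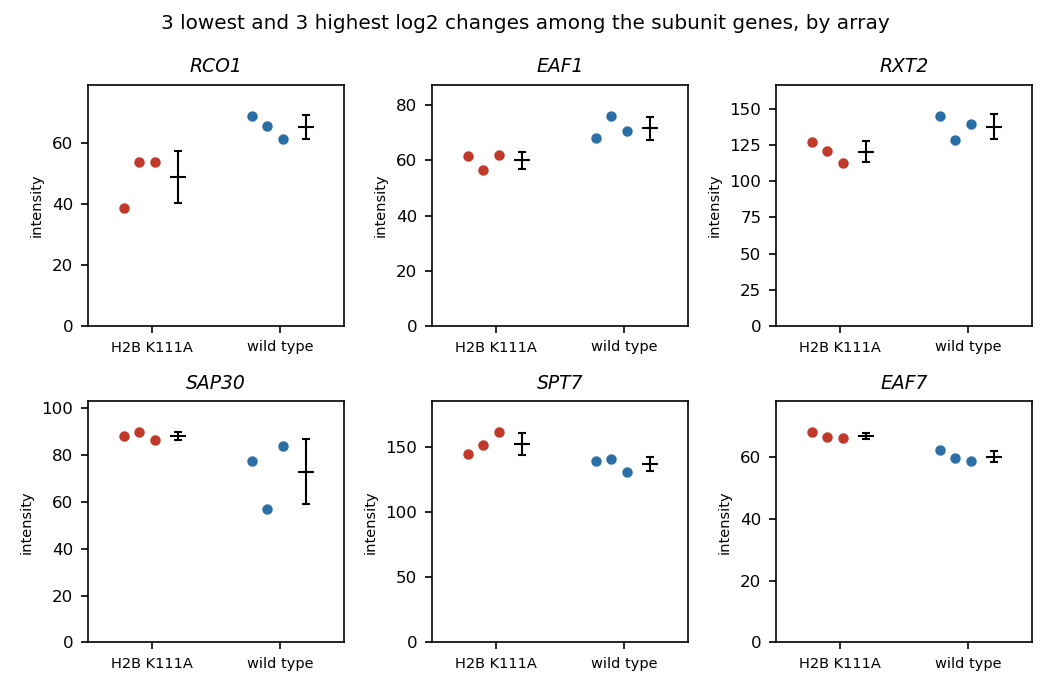
Intensity on each array of the 3 genes with the lowest and the 3 with the highest log2 change, H2B K111A to the left of wild type; bars give the mean and SD of 3 arrays. RCO1, EAF1 and RXT2 lie lower and SAP30, SPT7 and EAF7 higher on every mutant array than on any wild-type array, and RCO1 and EAF1 passed the test.

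In the Hda1 complex none of 3 genes passed, where 14.5% of all genes did. HDA1, its class II deacetylase, read 110.4, 108.3 and 112.8 in H2B K111A and 121.8, 116 and 123.3 in wild type. The strains did not overlap, and the gene was 1.09-fold lower in the mutant with a log2 change of -0.10 ± 0.035 (SE) that did not pass (limma adjusted p = 0.0965). HDA2 and HDA3 encode its 2 partner subunits, with log2 changes of 0.08 and -0.13. HDA3 varied most of all 54 genes within a strain, at 27.9, 43.4 and 33.5 in H2B K111A and 50.2, 43.8 and 30.5 in wild type.

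Set3 complex genes did not pass either, at 0 of 6, with none at an unadjusted p under 0.05 in limma. The shares of all genes were 14.5% and 31.7%. HOS2, its deacetylase, was dim at 12.6, 11.7 and 13.8 in H2B K111A and 12.7, 13.3 and 14.8 in wild type, and the strains overlapped. With a pseudocount of 1 its log2 change was -0.09 with a 95% interval of -0.27 to 0.09. CPR1, the cyclophilin A gene, gave the brightest probe set of the 54, at 1274 ± 69.8 in H2B K111A and 1318 ± 33.9 in wild type. Its protein is abundant outside the complex too, so its level is not that of the complex. Log2 changes were -0.06 for SET3, the PHD finger subunit that reads methylated H3, 0.03 for SIF2, -0.04 for SNT1 and 0.07 for HOS4, the last without overlap between the strains.

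The other 5 deacetylases act outside these complexes, and none passed, where 14.5% of all genes did. HOS1, which deacetylates cohesin, read 43.9, 43.3 and 47.9 in H2B K111A and 52.4, 50.9 and 49.9 in wild type. The mutant arrays all lay below the wild-type ones, and the log2 change of -0.11 ± 0.037 (SE) did not pass (limma adjusted p = 0.0778), though it did with quantile normalization (0.0437). HOS3 read 125.2, 118.2 and 133.1 in H2B K111A and 126.7, 112.2 and 119.5 in wild type, with overlap. The sirtuins are deacetylases that consume NAD. HST2, a mainly cytoplasmic one, read 83.6, 81.2 and 87.4 in H2B K111A and 82.8, 80.3 and 81.5 in wild type. HST3 read 88.1, 75.2 and 89.7 in H2B K111A and 89.3, 85.9 and 86.1 in wild type, and HST4 read 72.1, 71 and 75.6 in H2B K111A and 74.3, 73.4 and 75.9 in wild type. Both remove the mark that Rtt109 places on H3. All 3 sirtuin genes overlapped between the strains, with log2 changes of 0.03, -0.04 and -0.02.

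**Figure D4:**
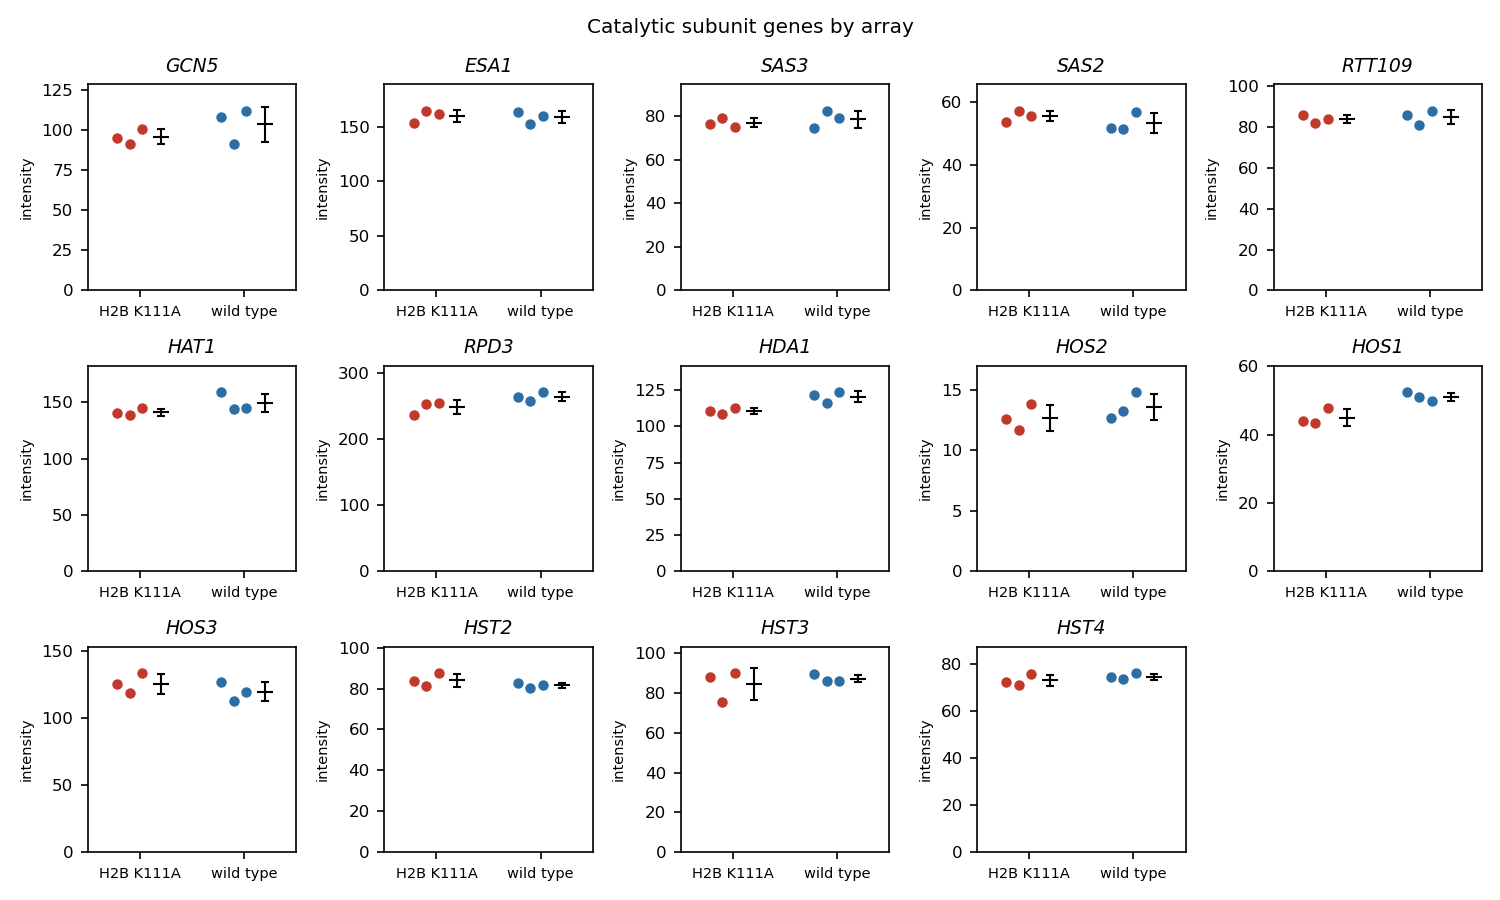
Intensity on each array of the 14 genes that encode a catalytic subunit, H2B K111A to the left of wild type; bars give the mean and SD of 3 arrays and each axis starts at 0. RPD3, HDA1 and HOS1 lie lower on every mutant array than on any wild-type array, as do 18.6% of all genes. None of the 14 passed the adjusted threshold, where 14.5% of all genes did.

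Across the catalytic subunits 0 of 14 passed in limma, where 14.5% of all genes did. An unadjusted p under 0.05 was found for 2, HDA1 and HOS1, against 31.7% of all genes. The log2 changes of the 14 ran from -0.11 to 0.06. On that log2(intensity + 32) scale each of the 14 intervals lay within 1.2-fold in either direction, as did 85.6% of the intervals of all genes. With a pseudocount of 1 this held for 11 of the 14, all but GCN5, HOS1 and HOS2, and for 61.1% of all genes. Among the 40 other subunit genes 2 fell and 38 did not pass, with changes from -0.27 to 0.20.

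The medians of both sides lay slightly below 0. The median log2 change was -0.02 over the 54 genes, -0.01 over the 28 acetyltransferase genes and -0.03 over the 26 deacetylase genes, beside -0.0005 over all genes. Of the 54, 33 lay below 0 and 21 above, and for 15 the sign differed in at least 1 of the 16 alternatives. By array, the median deviation of the subunit genes from their own means was -0.014, -0.019 and 0.0097 on H2B K111A arrays 1, 2 and 3, and 0.013, -0.0054 and 0.030 on wild-type arrays 1, 2 and 3. The arrays of the strains overlapped in this median, since mutant array 3 lay above wild-type array 2. The strains did not overlap in 12 of 54 genes (22.2%), against 36.7% of all genes. In 4 of them the mutant was higher, where 18.2% of all genes were, and in 8 lower, where 18.6% of all genes were. Without mutant array 3 the strains did not overlap in 20 of the 54 (37%), against 43.2% of all genes with that array left out, and without wild-type array 3 in 19 (35.2%), against 45.6%.

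Between complexes, the medians of the log2 change lay between -0.10 and 0.02. They were -0.01 for SAGA, -0.03 for NuA4, -0.02 for NuA3, 0.02 for SAS, -0.03 for Rpd3, -0.10 for Hda1 and -0.03 for Set3, each over 3 to 12 genes. The Hda1 value rests on 3 genes, of which HDA2 lay above 0. Subunits of 1 complex are not replicates, and no test of these medians was made.

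The wild-type intensity of the probe sets is a description, since probe sets of different genes respond differently and their order is not one of mRNA levels. SAGA genes read 12.9 to 220.4 in H2B K111A and 14.4 to 212 in wild type, NuA4 genes 60.0 to 330 in H2B K111A and 60.2 to 349.5 in wild type, and Rpd3 genes 20.4 to 355 in H2B K111A and 21.7 to 364 in wild type. The 3 SAS genes read 55.4 to 112 in H2B K111A and 53.3 to 110.3 in wild type, and the 3 sirtuin genes 72.9 to 84.3 in H2B K111A and 74.5 to 87.1 in wild type. The median of the 54 genes was 113 in H2B K111A and 115 in wild type, and that of all genes was 159 in both. The dimmest were HOS2, ADA2 and SDS3, which still lay above background on all 6 arrays.

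**Figure D5:**
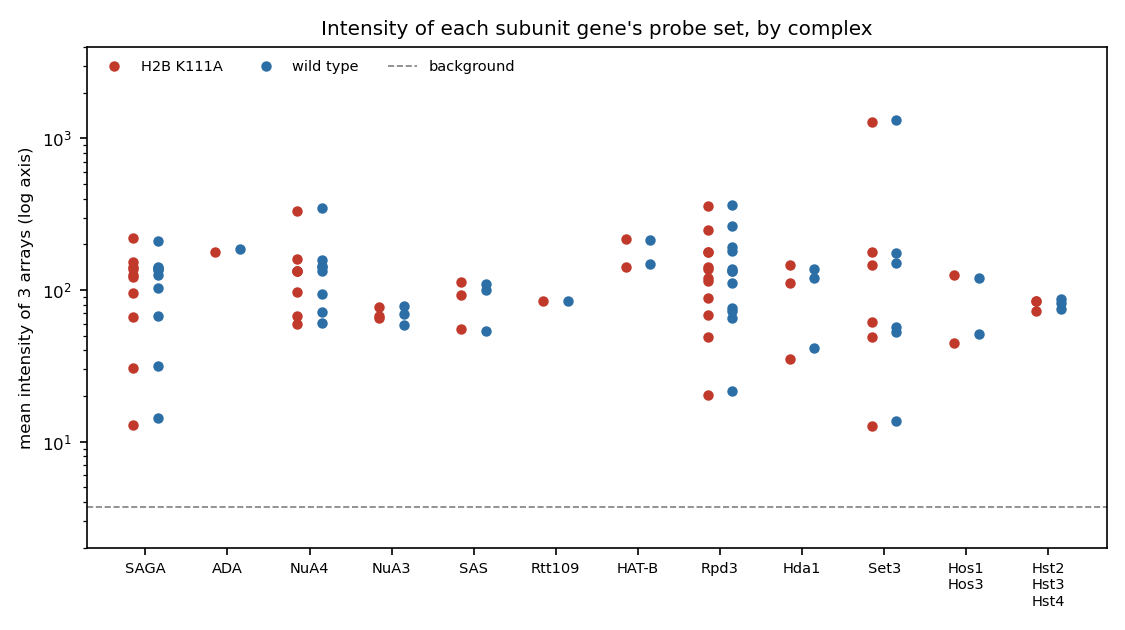
Mean intensity of 3 arrays (log axis) for the probe set of each subunit gene, grouped by complex, H2B K111A to the left of wild type; the dashed line is the background of 3.7. The 2 strains give nearly the same spread in each complex, and CPR1 is the bright point of the Set3 complex.

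Genes that act around these complexes were read from 6 further lists with 55 genes, of which 54 were measured. Of 21 other subunits of the same complexes 1 rose and none fell, where 6.92% of all genes rose and 7.62% fell. The riser was ASH1, a repressor tied to the large Rpd3 complex, with 446.2, 430.9 and 434.7 in H2B K111A and 395.1, 403.8 and 391 in wild type, without overlap, and a log2 change of 0.13 ± 0.033 (SE, limma adjusted p = 0.0335). The median log2 change of that list was -0.03. Of 5 measured genes of Elongator, a complex with an acetyltransferase-like subunit that modifies tRNA, 1 fell and none rose. It was ELP4, with 188.4, 182.8 and 199.9 in H2B K111A and 219.5, 212.3 and 238.8 in wild type, without overlap, and a log2 change of -0.20 ± 0.048 (SE, limma adjusted p = 0.0284).

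Among 14 genes that Ume6 and the large Rpd3 complex are known to repress, 1 rose and none fell. That is 7.14% of the list, beside 6.92% of all genes that rose. IME2, a meiotic kinase gene, read 35.1, 38.6 and 34.6 in H2B K111A and 26.7, 27.1 and 30.2 in wild type, without overlap, and its log2 change was 0.18 ± 0.04 (SE, limma adjusted p = 0.0209). Over these genes the log2 change had a median of -0.01, with 7 genes above and 7 below 0. Most of the meiotic genes were dim in these growing cells, and 12 of the 14 lay above background on all 6 arrays. In limma 14.5% of all genes passed, and none of the 5 acetyl-lysine reader genes or the 4 genes of acetyl-CoA supply did. Nor did any of the 6 genes of Sir2, Hst1, Sum1 and their partners. An unadjusted p under 0.05 was found for 1 reader gene, 1 acetyl-CoA supply gene and 2 genes of the Sir2 list. The share of all genes was 31.7%. Leaving out single arrays ended the calls of ASH1 (each of the 6, adjusted p 0.0512 to 0.105), ELP4 (all but wild-type array 2, 0.0529 to 0.0868) and IME2 (all but wild-type array 3, 0.0531 to 0.0651). With a pseudocount of 1 the calls of ASH1 (limma adjusted p = 0.0633) and ELP4 (0.0590) were lost as well, and IME2 kept its call at a log2 change of 0.36.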

How the data were processed

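The deposited table holds linear intensity values of single-channel arrays, with similar means on the 6 arrays. Whether and how the authors scaled them, how they were summarised, and with which software or genome build, is not given in the sources used here. Of 10928 probe sets, 5498 matched a gene of the RefSeq R64 table through the gene identifier of the array annotation, 1746 belong to another organism, and 3683 have no annotation row. For 47 genes with several probe sets, the one brightest over the 6 arrays was used, for 5449 genes in all.

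No further scaling was applied before taking log2(intensity + 32). The difference H2B K111A minus wild type came from limma 3.58.1 (lmFit, eBayes; R 4.3.3) as a two-sided test, called at a Benjamini-Hochberg adjusted p of 0.05 across all genes. The moderated test had 8.91 degrees of freedom, and the number of arrays limits the precision. Fold values are ratios of mean intensities. The procedure was run on simulated data, and its recovery of changes as small as those of the subunit genes is not reported here. Members, lists and tests were chosen with earlier results of these data known.

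Array values are given for genes past the threshold, the 14 catalytic subunits and the 3 lowest and 3 highest log2 changes. Of the other lists, genes past the threshold are named. EAF5 and HDA3, whose array values are given for their spread, HFI1, SIN3, ADA2 and CPR1 fall outside this rule and were chosen after their values were seen. Figures were drawn with matplotlib 3.10.9.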

Additional observations from a re-analysis of the deposited data

How the results depend on the processing

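The counts past the threshold, the median changes of all subunit genes and of each side, each subunit gene's change and those of ASH1, ELP4 and IME2 were recomputed under 16 alternatives, 10 of them other scalings, pseudocounts, filters, variance models or probe set rules and 6 leaving out an array. The count without overlap was recomputed only for the scalings, the dim filter, the probe set rule and the arrays left out, and the medians of single complexes and other lists were not recomputed. Of 864 combinations of a subunit gene and an alternative, 850 kept their side of the threshold. In 12 the call of EAF1 or RCO1 was lost, in 2 one was gained (HOS1 and RXT2), and in none did a called direction turn. Most of the 850 belong to the 52 genes not called in the main fit, many of them far from the threshold. EAF1 and RCO1 each kept the call in 10 of the 16 alternatives. The probe set rule and the dim filter could not alter a subunit gene's own values, since each gene has 1 probe set and lay above background. The count of subunit genes past the threshold was 1 with a pseudocount of 1, when all genes counted 489 (8.97%). It was 3 with quantile normalization, when all genes counted 904 (16.6%). With single arrays left out the count of subunit genes ran from 0 to 1, while that of all genes ran from 213 to 559 (3.91% to 10.3%). At an unadjusted p under 0.05 in limma there were 6 to 12 subunit genes, beside 1300 to 1598 of all 5449 genes. The called genes of the other lists ran from 0 to 4. The subunit genes without overlap ran from 15 to 20, beside 43.2% to 46.7% of all genes. The median change of the 54 genes stayed between -0.03 and -0.01 in every alternative. With the replicate number as a block, 0 subunit genes, 346 of all genes (6.35%) and 1 of the other lists passed in limma. At an unadjusted p under 0.05 there were 10 subunit genes, beside 1473 of all 5449 genes. The calls of ASH1 (limma adjusted p = 0.0944) and IME2 (0.0564) were lost in the block fit. Same-numbered arrays deviated from their strain means with correlations of -0.23, -0.06 and -0.17, and no array correlated best with its own number (0 of 6). The labels do not say whether the numbers pair the samples. With 3 arrays per strain these correlations cannot settle it. Genes at low signal over background, such as HOS2 and ADA2, have changes compressed by the pseudocount.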
